A study of Mus musculus with 18 samples.

Results

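Klf2, Klf4, Nos3, Edn1, Ednrb and Ece1 were followed through sorted endothelial cells (ECs) of 3 breast tissues of FVB mice, as the 6 rows with those names among the 16248 genes of the table. They were chosen by name, as transcription factors that respond to blood flow and as the genes that make, process and receive the vessel-tone signals under their control. Normal ECs were taken from wild-type mammary fat pads. MMTV-PyMT ECs came from the spontaneous mammary tumours of mice in which a mammary tumour virus promoter drives the polyoma middle T oncogene in the epithelium. Implanted ECs came from tumours grown out of briefly cultured MMTV-PyMT tumour cells that were set with Matrigel into the fat pad of wild-type females, so the vessels of these tumours are those of a host without the transgene. MMTV-PyMT females were 9 weeks old when treatment began and implanted hosts 8 to 9 weeks old at implantation, and no age was stated for the normal mice. Each tissue was injected with phosphate-buffered saline (PBS) or with 3'3'cGAMP (cGAMP), a cyclic dinucleotide agonist of STING, the adaptor of cytosolic DNA sensing, and was taken 3 h later. There were 3 libraries in each of the 6 groups, 18 in all.

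KLF2 and KLF4 are zinc-finger transcription factors that ECs make under steady laminar flow. Flow is sensed at the surface and at cell junctions, and a kinase relay of MEKK3, MEK5 and ERK5 acts through MEF2 factors on both genes. KLF2 and KLF4 raise Nos3, which encodes endothelial nitric oxide synthase, the enzyme whose nitric oxide relaxes vascular muscle, and they hold down Edn1 and genes of leukocyte adhesion. Edn1 encodes the precursor of endothelin-1, a strong vasoconstrictor, and ECE1 is the membrane protease that cuts the precursor to its active form. EDNRB, the endothelin B receptor, sits on ECs, where it clears endothelin-1 and stimulates nitric oxide release.

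In GRCm38 the genes lie on 5 chromosomes: Klf2 (ENSMUSG00000055148.7) at chr8:72319033-72321656 on the plus strand, Klf4 (ENSMUSG00000003032.8) at chr4:55527143-55532466 on the minus strand, Nos3 (ENSMUSG00000028978.12) at chr5:24364810-24384474 on the plus strand, Edn1 (ENSMUSG00000021367.8) at chr13:42301476-42307990 on the plus strand, Ednrb (ENSMUSG00000022122.15) at chr14:103814625-103844402 on the minus strand and Ece1 (ENSMUSG00000057530.14) at chr4:137862237-137965229 on the plus strand. Exons of Nos3 overlap Atg9b on the opposite strand, and those of Edn1 overlap the antisense gene Gm47118. Whether the authors counted by strand was not stated, so reads in those stretches could belong to either gene.

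Promoter sequences were found for 5 of the 6 genes in RefSeq (GRCm38.p6), and Nos3 had no entry. The windows of Klf2, Klf4 and Edn1 are shown because these 3 genes differed most between normal and tumour ECs. Each runs 5' to 3' from 250 to 51 bases before the transcript start that RefSeq gives, which for Klf2 and Klf4 is not the gene start printed above. Capitals mark matches, on either strand, to the MEF2 consensus, to CACCC (the box that KLF factors bind), to GAGACC (a shear stress element), to TGANTCA (AP-1), to TTCNNNGAA (STAT) and to TTTCNNTTTC (interferon regulatory factors).
Klf2: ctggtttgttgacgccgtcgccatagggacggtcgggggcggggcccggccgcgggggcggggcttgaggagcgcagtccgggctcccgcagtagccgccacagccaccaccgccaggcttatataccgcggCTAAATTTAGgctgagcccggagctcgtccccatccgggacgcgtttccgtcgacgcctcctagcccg
Klf4: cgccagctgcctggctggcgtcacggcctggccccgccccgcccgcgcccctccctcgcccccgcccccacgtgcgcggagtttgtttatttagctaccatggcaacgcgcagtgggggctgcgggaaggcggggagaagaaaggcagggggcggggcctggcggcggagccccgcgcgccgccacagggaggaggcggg
Edn1: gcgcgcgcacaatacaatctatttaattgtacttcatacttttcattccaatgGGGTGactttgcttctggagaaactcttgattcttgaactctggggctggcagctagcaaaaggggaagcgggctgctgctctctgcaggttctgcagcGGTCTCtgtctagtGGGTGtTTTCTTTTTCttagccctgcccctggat
The windows lie at chr8:72318812-72319011 on the plus strand, at chr4:55532526-55532725 on the minus strand and at chr13:42301226-42301425 on the plus strand. The Ednrb window held 2 CACCC boxes, and 3 of the 4 Ece1 windows held at least 1. The Ece1 windows at chr4:137861987-137862186 and chr4:137862030-137862229 overlap and share the same box. The Ece1 window at chr4:137920543-137920742 held a TTTCNNTTTC match at position -72. The capitals of Klf2 are a match to the MEF2 consensus at position -118 from that RefSeq start, which 0.368% of 32851 promoter windows of the same length held. The Klf4 window, with a GC content of 76.5%, held none of the 6 motifs. The Edn1 window, with a GC content of 49.0%, held 2 CACCC boxes on the minus strand (44.4% of windows held at least 1), 1 GAGACC element (11.2%) and 1 TTTCNNTTTC match (2.4%). No matches overlapped. A match is a run of letters, and none of these data shows whether a factor binds it. AP-1 and STAT letters, held by 5.57% and 5.76% of all windows, were in none of the 8 windows of the members.

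Recovered read totals ran from 9124935 to 12129416 a library, and the members had between 78 reads (lowest library of Edn1) and 10361 reads (highest of Ece1). All 10 pan-endothelial marker genes were present in every library, with summed levels of 829 to 2006 FPKM (fragments per kilobase, scaled by library). Of them, Cdh5 (VE-cadherin) averaged 291 FPKM in both normal PBS and MMTV-PyMT PBS libraries. Under PBS, 6 of the 10 were lower in MMTV-PyMT than in normal ECs and none was higher (median log2 difference -0.48), and 4 were higher and 2 lower in implanted ECs. Markers of other cell types were present in the sort. The 8 mural cell markers summed to 873 to 1196 FPKM in normal libraries and to 177 to 446 in tumour libraries, and the 6 epithelial markers to 313 to 419 in normal, 581 to 905 in MMTV-PyMT and 245 to 533 in implanted libraries. The 7 leukocyte markers of 8 that were listed summed to 17.2 to 68.1 FPKM, except for 213 in implanted cGAMP 2, and the 6 fibroblast markers to 53.5 to 96.9 in normal, 111 to 178 in MMTV-PyMT and 234 to 609 in implanted libraries. No marker in the table was at 0, and none of the 4 adipocyte markers was in the table. In bulk RNA, fewer cells of a type and less RNA per cell cannot be told apart. The part of these markers in the results was not tested. Implanted cGAMP 1 stood apart from its group with 2006 FPKM of pan-endothelial markers, against 1224 and 1476, and with the highest value of Klf2, Klf4, Nos3, Edn1, Ednrb and Ece1 in that group. Changes of the 6 genes and of the gene lists around them with cGAMP in implanted ECs are therefore given without it as well.

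**Figure D1:**
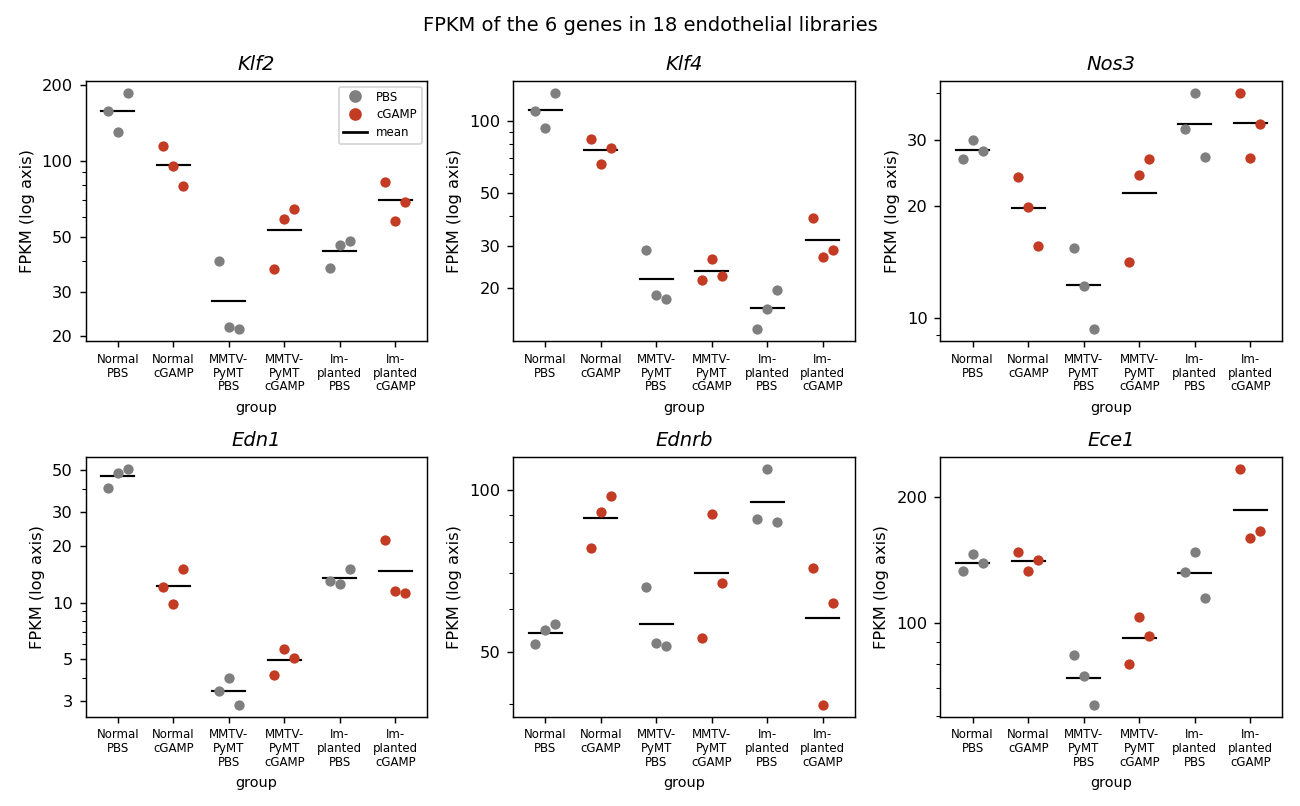
FPKM (log axis) of the 6 genes in each of the 18 libraries, with 1 point per library, grey for PBS and red for cGAMP, and a line at the group mean (n = 3). Klf2, Klf4 and Edn1 were highest in the normal PBS libraries, and Nos3 and Ece1 had their lowest means in the MMTV-PyMT PBS libraries.

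All 6 genes were well expressed in normal PBS libraries, where mean FPKM ranked Klf2 132nd, Ece1 162nd, Klf4 210th, Ednrb 490th, Edn1 595th and Nos3 1142nd of 16248 genes. Edn1 was lower in MMTV-PyMT PBS libraries, at rank 8184 with a mean of 3.42 FPKM. All 6 passed the filter on low values and were tested among 13983 genes with limma on log2(FPKM + 1). A change passed when its Benjamini-Hochberg adjusted p, taken over all tested genes, was under 0.05.

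Under PBS, 5 of the 6 genes passed as lower in MMTV-PyMT than in normal ECs, beside 56.5% of all tested genes that passed (29.8% higher and 26.6% lower). Implanted and normal ECs differed in 4 genes, with 3 lower and 1 higher in implanted ECs, beside 48.7% of all genes (25.0% higher and 23.6% lower). Between the tumours, 5 genes were higher in implanted than in MMTV-PyMT ECs, beside 45.5% of all genes (20.8% higher and 24.6% lower). With cGAMP, normal ECs had 3 members that fell and 1 that rose, beside 31.9% of all genes (13.7% higher and 18.2% lower). MMTV-PyMT ECs had 2 members that rose, beside 12.0% of all genes (7.42% higher and 4.57% lower). Implanted ECs had 3 members that rose and 1 that fell, beside 39.1% of all genes (20.3% higher and 18.8% lower). The cGAMP effect itself differed between MMTV-PyMT and normal ECs for 3 genes (8.37% of all genes), between implanted and normal ECs for 4 (18.6%) and between implanted and MMTV-PyMT ECs for 1 (11.1%). These comparisons share libraries. The PBS libraries of a tissue enter both its cGAMP change and its contrast with the other tissues.

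Klf2 was the most abundant of the 6 genes in normal PBS libraries, at 158, 130.2 and 187 FPKM. It stood at 39.9, 21.7 and 21.4 FPKM in MMTV-PyMT PBS libraries and at 37.4, 46.4 and 48.1 FPKM in implanted PBS libraries. No tumour library reached the lowest normal one. The mean was 5.72-fold lower in MMTV-PyMT (log2 difference -2.52 ± 0.24, SE, adjusted p = 4.09e-07, limma) and 3.60-fold lower in implanted ECs (-1.82 ± 0.24, adjusted p = 1.32e-05). Klf2 was higher in implanted than in MMTV-PyMT ECs (0.70 ± 0.24, adjusted p = 0.0257), although the values of the tumour groups overlapped through MMTV-PyMT PBS 1. That difference missed the threshold without MMTV-PyMT PBS 2 (0.56), MMTV-PyMT PBS 3 (0.55), implanted PBS 2 (0.66) or implanted PBS 3 (0.63), with adjusted p of 0.0742 to 0.114, and with scaling by total reads (0.55, adjusted p = 0.0539).

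Klf4 was also highest in normal ECs, with MMTV-PyMT above implanted ECs in mean level, the reverse of Klf2. It measured 110.4, 94.0 and 132 FPKM in normal PBS libraries, 28.9, 18.8 and 17.9 in MMTV-PyMT PBS libraries and 13.4, 16.4 and 19.6 in implanted PBS libraries. It was 5.12-fold lower in MMTV-PyMT (log2 difference -2.32 ± 0.19, adjusted p = 7.61e-08) and 6.80-fold lower in implanted ECs (-2.69 ± 0.19, adjusted p = 1.31e-08), with no overlap. The tumours did not pass as different from each other for Klf4 (-0.37, 95% interval -0.77 to 0.03, adjusted p = 0.116), and with scaling by total reads they did (-0.52, adjusted p = 0.0220), where the median of all genes was -0.13. The ratio of Klf2 to Klf4 within a library was 1.39 to 1.43 in normal PBS, 1.16 to 1.38 in MMTV-PyMT PBS and 2.45 to 2.83 in implanted PBS libraries.

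Of the 10 pan-endothelial markers, 6 were lower in MMTV-PyMT than in normal ECs under PBS and none was higher, as given above. Pecam1 ran from 258 to 292 FPKM in normal PBS and from 138 to 177 in MMTV-PyMT PBS libraries (log2 difference -0.84, adjusted p = 0.000214). All 8 mural markers were lower in each tumour. Of the 6 epithelial markers, 4 were higher and 0 lower in MMTV-PyMT ECs (median 1.27), and 2 were higher and 1 lower in implanted ECs (median 0.20). The part of these markers in the Klf2 and Klf4 values was not tested.

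**Figure D2:**
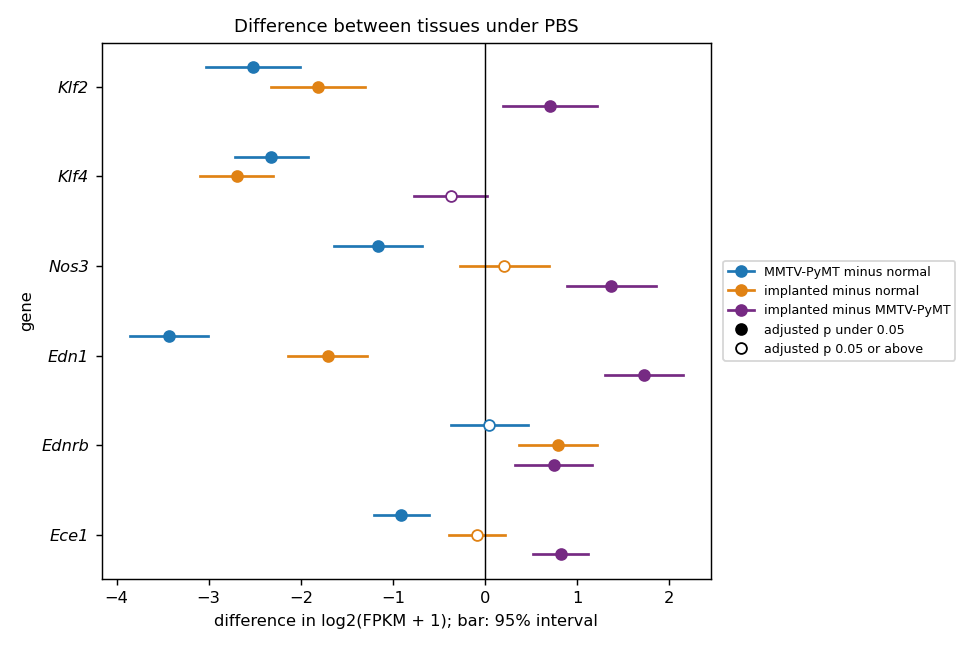
Differences between tissues under PBS for the 6 genes on the log2(FPKM + 1) scale, with 95% intervals as bars (limma, n = 3 a group) and filled points for adjusted p under 0.05. Klf2, Klf4 and Edn1 lie left of 0 for both tumours against normal ECs, and Ednrb lies right of 0 for implanted ECs (0.79).

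Genes of the flow-sensing relay did not share the size of that fall. Of 15 measured genes upstream of KLF2 and KLF4, 8 were lower and 1 higher in MMTV-PyMT than in normal ECs, with a median log2 difference of -0.30 (all tested genes 0.02), and 2 were lower and 4 higher in implanted ECs (median 0.04, all genes 0.01). The list was not split into genes that raise and genes that restrain the factors, so its counts and medians give no direction of signalling. Heg1, a junctional receptor that anchors the KRIT1 complex, was lower in both (-1.75, adjusted p = 1.49e-07, and -0.78, adjusted p = 0.000476). Mef2c, a direct activator of both KLF genes, was lower in both (-1.30, adjusted p = 5.68e-06, and -0.84, adjusted p = 0.000422). Plxnd1, a flow-sensing plexin, was higher in implanted ECs (1.12, adjusted p = 4.87e-05). Between the tumours, 12 of the 15 were higher in implanted ECs and none was lower (median 0.46, all genes -0.01), with 7 higher and 1 lower after scaling by total reads. In the same contrast 7 of the 10 pan-endothelial markers were higher and 1 lower (median 0.69) and 5 of the 6 epithelial markers lower (median -1.04), and Kdr, Pecam1 and Cdh5 are in both of the endothelial lists. The part of these markers was not tested. Heg1 (0.97), Kdr, the main VEGF receptor (0.95), and Plxnd1 (0.79) showed the largest of these differences.

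Genes that KLF2 or KLF4 are known to induce were mostly lower in tumours, as 4 of the 5 tested fell below normal in each tumour and 1 was higher (medians -1.37 in MMTV-PyMT and -0.84 in implanted ECs). Thbd, the anticoagulant receptor thrombomodulin, averaged 167 FPKM in normal PBS, 31.5 in MMTV-PyMT PBS and 54.6 in implanted PBS libraries (-2.41, adjusted p = 7.16e-08, and -1.6, adjusted p = 4.95e-06). S1pr1, a receptor that steadies EC junctions, was lower in MMTV-PyMT (-1.63, adjusted p = 9.47e-07) and implanted ECs (-0.59, adjusted p = 0.00831), and Tek, the angiopoietin receptor, was lower in both (-1.37 and -1.96). The member that went the other way was Ass1, which recycles citrulline to arginine, at a mean of 10.8 FPKM in normal PBS, 26.2 in MMTV-PyMT PBS and 17.0 in implanted PBS libraries. It was named after its values were seen.

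Of 4 genes that KLF2 or KLF4 are known to repress, 2 were lower and none higher in MMTV-PyMT ECs (median -0.50), and 2 were higher and 2 lower in implanted ECs (median 0.13, and -0.0016 with 1 higher and 2 lower after scaling by total reads). Vcam1, a leukocyte adhesion molecule, was lower in MMTV-PyMT (-2.55, adjusted p = 4.57e-07) and implanted ECs (-0.66, adjusted p = 0.0358). Angpt2, an antagonist of TEK that loosens vessels, was lower in MMTV-PyMT (-0.56, adjusted p = 0.0210) and higher in implanted ECs (2.10, adjusted p = 2.65e-07). Sele, the E-selectin that captures leukocytes, was lower in implanted ECs (-1.99, adjusted p = 0.000159). Among 12 other tested members of the KLF family, 8 were lower and 1 higher in each tumour. Klf9 (-1.46 and -2.17) and Klf15 (-1.32 and -1.76) were lower, and Klf5 was higher (1.51 and 1.70).

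With cGAMP, Klf2 fell in normal ECs and rose in both tumours. In normal ECs it stood at 115, 95.2 and 79.7 FPKM against 158, 130.2 and 187 with PBS, and no value overlapped (log2 change -0.71 ± 0.24, adjusted p = 0.0340). In MMTV-PyMT ECs it stood at 37.3, 58.6 and 64.1 FPKM against 39.9, 21.7 and 21.4, so that cGAMP 1 lay below PBS 1 (0.94 ± 0.24, adjusted p = 0.0167). In implanted ECs it stood at 82.4, 57.7 and 68.9 FPKM against 37.4, 46.4 and 48.1, with no overlap (0.65 ± 0.24, adjusted p = 0.0428). The effect differed from that in normal ECs by 1.65 ± 0.34 in MMTV-PyMT (adjusted p = 0.00853) and by 1.35 ± 0.34 in implanted ECs (adjusted p = 0.0107), and the tumours did not pass as different from each other (-0.30, 95% interval -1.02 to 0.42).

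Single libraries decided whether the Klf2 changes passed. In normal ECs the change was -0.70 without PBS 1, -0.58 without PBS 3, -0.70 without cGAMP 2 and -0.58 without cGAMP 3, with adjusted p of 0.0729 to 0.133. In MMTV-PyMT ECs it was 0.81 without PBS 2, 0.80 without PBS 3, 0.86 without cGAMP 2 and 0.80 without cGAMP 3 (adjusted p 0.0817 to 0.0929), and with MMTV-PyMT libraries alone in the fit it was 0.94 (adjusted p = 0.061). In implanted ECs it was 0.54 without PBS 1, 0.69 without PBS 2, 0.71 without PBS 3, 0.52 without cGAMP 1 and 0.65 without cGAMP 3 (adjusted p 0.0581 to 0.155), and it was 0.33 with scaling by total reads (adjusted p = 0.228), where the median of all tested genes was -0.25. Leaving out normal PBS 1 or normal cGAMP 2, which enter that fit only through the shared spread, kept 0.65 with adjusted p of 0.0526 and 0.0502. Both differences of effect from normal ECs passed without any one library, and for implanted against normal ECs quantile normalization gave 0.94 (adjusted p = 0.0579). With quantile normalization the change in implanted ECs was 0.24 (adjusted p = 0.440), and with the replicate number as a block it was 0.65 (adjusted p = 0.0561).

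Klf4 fell in normal ECs with cGAMP, from 110.4, 94.0 and 132 to 84.0, 66.1 and 77.5 FPKM (-0.55 ± 0.19, adjusted p = 0.0344). In implanted ECs it rose from 13.4, 16.4 and 19.6 to 39.3, 27.1 and 28.9 FPKM (0.90 ± 0.19, adjusted p = 0.00119), and it also passed without implanted cGAMP 1 (0.75, adjusted p = 0.00831). Neither pair of groups overlapped. In MMTV-PyMT ECs values of 21.6, 26.4 and 22.5 FPKM lay among the 28.9, 18.8 and 17.9 of PBS (0.13, 95% interval -0.27 to 0.52, adjusted p = 0.719). The effect in implanted ECs differed from that in normal ECs by 1.45 ± 0.26 (adjusted p = 0.00128), and the MMTV-PyMT effect did not pass against either (0.68, adjusted p = 0.128, and 0.78, adjusted p = 0.0712). The MMTV-PyMT effect passed against the normal one without MMTV-PyMT PBS 1 (0.89, adjusted p = 0.0407). The fall in normal ECs missed the threshold without PBS 1 (-0.55), PBS 3 (-0.43), cGAMP 2 (-0.45) or cGAMP 3 (-0.57), with adjusted p of 0.0658 to 0.147.

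**Figure D3:**
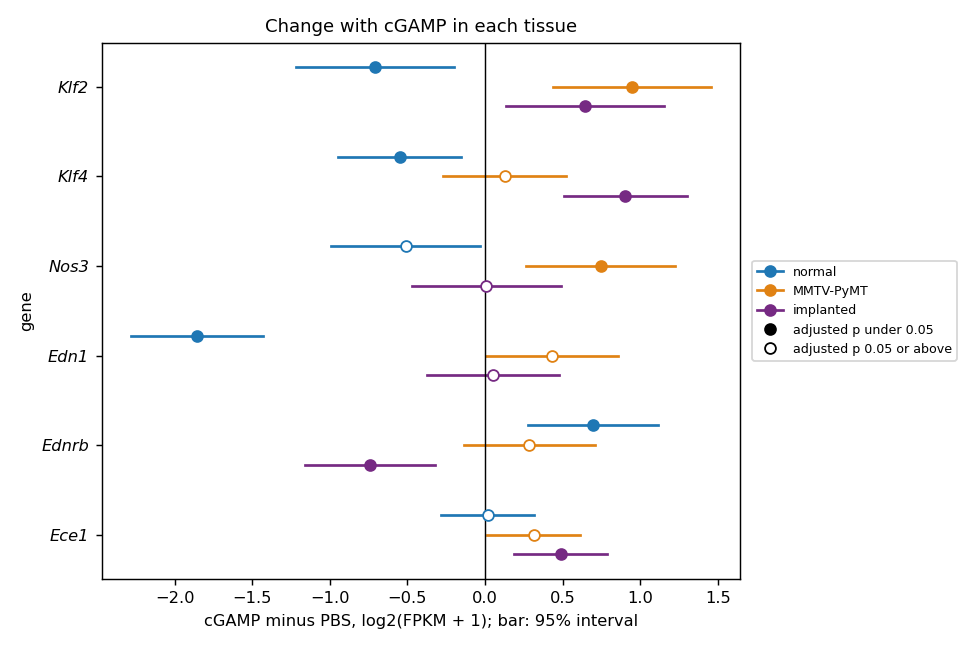
Change of the 6 genes with cGAMP in normal (blue), MMTV-PyMT (orange) and implanted (purple) ECs, as cGAMP minus PBS on the log2(FPKM + 1) scale, with 95% intervals as bars (limma, n = 3 a group) and filled points for adjusted p under 0.05. Klf2 lies left of 0 in normal ECs and right of 0 in both tumours, Edn1 reaches -1.86 in normal ECs, and Ednrb lies on opposite sides of 0 in normal and implanted ECs.

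Among listed targets of the factors, some changed in the same direction as Klf2 and others did not. Of the 5 tested genes that KLF2 or KLF4 induce, 3 fell and 1 rose in normal ECs, 2 rose in MMTV-PyMT ECs and 3 rose in implanted ECs (medians -0.48, 0.38 and 0.60, beside -0.04, -0.04 and -0.01 over all tested genes). In implanted ECs the calls became 1 up and 2 down after scaling by total reads, where the median of all genes was -0.25, and none up and 2 down after quantile normalization, where it was -0.09. The list's median stayed above 0 in both (0.30 and 0.22). Adamts1, a secreted metalloprotease, rose in all 3 tissues (0.98, 0.98 and 0.77), and missed the threshold in implanted ECs without implanted cGAMP 1 (0.56, adjusted p = 0.0693). Thbd (-0.57, adjusted p = 0.0341) and Tek (-0.81, adjusted p = 0.00246) fell in normal ECs. S1pr1 rose in MMTV-PyMT (0.60) and implanted ECs (0.72), and Ass1 in implanted ECs (0.60, adjusted p = 0.00830). Tek is also in the pan-endothelial list. Whether Klf2 or Klf4 had a part in these target values was not tested.

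Genes that the factors repress included risers in every tissue. With cGAMP the numbers that rose were 2 of 4 (normal), 3 of 4 (MMTV-PyMT) and 2 of 4 (implanted), and none fell (medians 0.83, 2.51 and 2.10). Ccl2, the monocyte chemokine, rose by 4.28, 4.95 and 5.82 on the log2 scale, and Vcam1 by 1.0, 3.44 and 3.42. Mean Vcam1 went from 16.8 to 35.1 FPKM in normal, from 2.08 to 32.7 in MMTV-PyMT and from 10.3 to 124 in implanted ECs. Sele rose in MMTV-PyMT ECs (1.57, adjusted p = 0.00628). The part of Klf2 and Klf4 in these values was not tested.

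Upstream of the factors, 3 of 15 genes fell in normal ECs (Plxnd1 by 0.61, Heg1 by 0.49 and Mapk7, the gene of ERK5, by 0.34). In MMTV-PyMT ECs 0 of 15 passed by limma, with 7 at an unadjusted p under 0.05 and 0 that passed by voom, and after scaling by total reads 3 of the 15 fell. In implanted ECs 3 fell and 1 rose, among them Pdcd10 (0.58), a member of the KRIT1 complex, Kdr (-0.52) and Mapk7 (-0.46), with 5 down and 1 up after either other scaling (median -0.16 by total reads and -0.18 by quantiles, against 0.15). Among other KLF genes, Klf5 rose in normal ECs (0.79), Klf7 in both tumours (0.67 and 0.43), and Klf8 (1.62) and Klf6 (0.89) in implanted ECs. Klf11 fell in all 3 tissues (-0.53, -0.51 and -0.48), Klf10 in normal (-0.50) and MMTV-PyMT ECs (-0.66), Klf16 in both tumours (-0.55 and -0.47) and Klf15 in normal ECs (-0.70). Over the 12, the counts were 1 up and 4 down in normal, 1 up and 4 down in MMTV-PyMT, and 3 up and 4 down in implanted ECs.

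Klf2 and Klf4 respond quickly to cell stress, and all tissues were digested with enzymes before the sort, so immediate-early genes are given beside them. The 14 that were in the table summed to 3171 to 4142 FPKM in normal PBS, 2820 to 3623 in MMTV-PyMT PBS and 1644 to 1973 in implanted PBS libraries. Under PBS, 6 of the 14 were lower and 4 higher in MMTV-PyMT ECs, and 11 lower and 3 higher in implanted ECs, than in normal ECs. With cGAMP they summed to 2375 to 2818 FPKM in normal, 2553 to 2858 in MMTV-PyMT and 1858 to 2076 in implanted libraries, and the counts were 8 down and 1 up, 3 down and 1 up, and 2 down and 2 up in that order. The last became 5 down and 1 up with scaling by total reads and 7 down and 1 up with quantile normalization. Dusp1, a phosphatase of stress kinases, fell in normal ECs (-0.85, adjusted p = 0.000830) and rose in implanted ECs (0.43, adjusted p = 0.0414), where it missed the threshold without implanted cGAMP 1 (0.25, adjusted p = 0.221). Atf3, a stress-induced transcription factor, had the largest rise of the list in both tumours (0.94, adjusted p = 0.00224, and 1.57, adjusted p = 3.69e-06), and stood at 0.38 in normal ECs (adjusted p = 0.114). The effect in implanted ECs was above that in normal ECs for 7 of the 14 and below for none (median 0.50), against 3 above and 1 below after scaling by total reads and 1 above and none below with quantile normalization. Nr4a1, an immediate-early nuclear receptor, fell in all 3 tissues (-0.69, -1.25 and -0.39). The part of these genes, and of digestion and sorting, in the KLF values was not tested.

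Without implanted cGAMP 1, a setting chosen after the data were seen, the lists in implanted ECs gave these counts with cGAMP. Beside them, the median of all tested genes in this setting was -0.017. With every library kept, 39.1% of all genes passed in this comparison. The share without implanted cGAMP 1 is not given here, so the counts that follow have no matching share beside them. Of flow-sensing genes 1 rose and 3 fell (median 0.038), of genes that KLF2 or KLF4 induce 2 rose (median 0.49), and of those they repress 2 rose (median 1.91). Of other KLF genes 4 rose and 4 fell, of nitric oxide supply genes 4 rose and 2 fell, of nitric oxide receptor genes 1 fell, of other endothelin genes 1 rose, and of immediate-early genes 1 rose and 2 fell. Klf6 (0.81), Klf8 (1.42), S1pr1 (0.49), Ass1 (0.68), Nos2 (2.21), Gch1 (1.81) and Furin (0.42) each passed as higher there. Of pan-endothelial markers 2 fell, of arterial markers 4 fell and of mural markers 1 fell. Of venous markers 2 rose and 1 fell, of leukocyte markers 2 rose, of fibroblast markers 2 rose and of epithelial markers 1 rose.

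**Figure D4:**
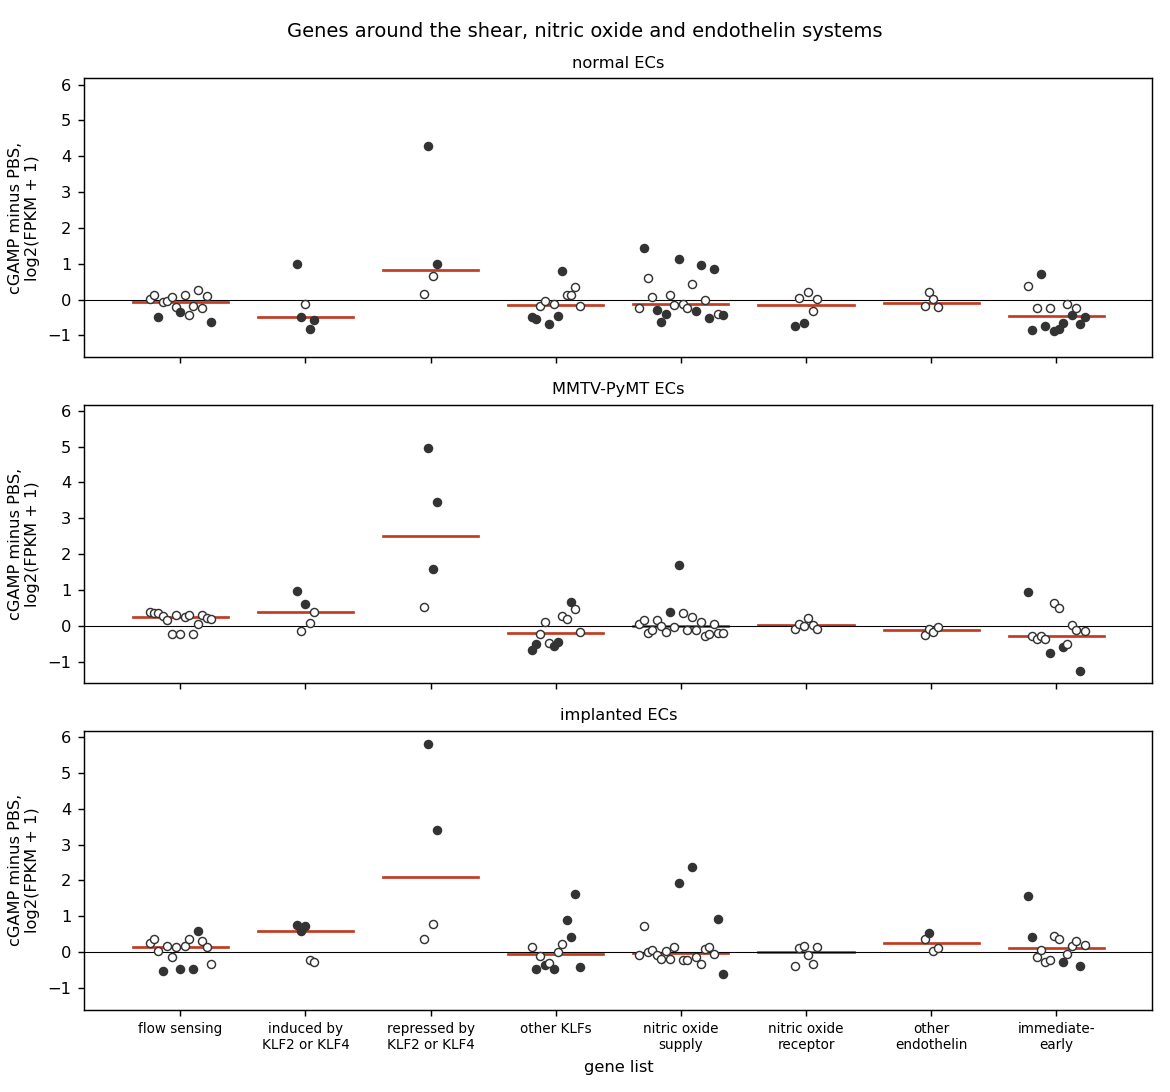
Change with cGAMP, as cGAMP minus PBS on the log2(FPKM + 1) scale, of each tested gene of 8 lists around the 6 genes, with a panel for each tissue, filled points for adjusted p under 0.05 and a red line at the list's median. The list of genes that KLF2 or KLF4 repress has medians of 0.83, 2.51 and 2.10, and the flow-sensing list has medians of -0.06, 0.25 and 0.15.

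Nos3 followed another order from the KLF factors. It measured 26.7, 30.1 and 28.0 FPKM in normal PBS, 32.2, 40.1 and 27.1 in implanted PBS and 15.4, 12.2 and 9.32 in MMTV-PyMT PBS libraries. All MMTV-PyMT PBS values lay below all others under PBS, while normal and implanted values overlapped. The mean was 2.30-fold lower in MMTV-PyMT than in normal ECs (-1.16 ± 0.23, adjusted p = 0.000428) and 2.7-fold higher in implanted than in MMTV-PyMT ECs (1.37 ± 0.23, adjusted p = 0.000174). Implanted and normal ECs did not pass as different (0.21, 95% interval -0.27 to 0.69), although Klf2 and Klf4 differed 3.60-fold and 6.80-fold there.

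With cGAMP, Nos3 rose in MMTV-PyMT ECs to 14.1, 24.1 and 26.7 FPKM (0.75 ± 0.23, adjusted p = 0.0425), where cGAMP 1 lay within the PBS range. In normal ECs it stood at 23.9, 19.9 and 15.6 FPKM, below every PBS value, and missed the threshold (-0.51 ± 0.23, adjusted p = 0.0974). With normal libraries alone in the fit that change passed (-0.51, adjusted p = 0.0292). In implanted ECs values of 40.0, 26.9 and 33.2 FPKM overlapped the PBS values (0.01, 95% interval -0.47 to 0.49, and -0.13 without implanted cGAMP 1).

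The effect of cGAMP on Nos3 was 1.26 ± 0.32 higher in MMTV-PyMT than in normal ECs (adjusted p = 0.0244), and implanted ECs did not pass against either (0.52 and -0.74). The rise in MMTV-PyMT ECs missed the threshold without PBS 2 (0.75), PBS 3 (0.58), cGAMP 2 (0.65) or cGAMP 3 (0.58), with adjusted p of 0.0996 to 0.196, and with MMTV-PyMT libraries alone in the fit (0.75, adjusted p = 0.0890). With the replicate number as a block it was 0.75 (adjusted p = 0.0587). It also missed without normal PBS 1, 2 or 3, normal cGAMP 2, implanted PBS 1 or implanted cGAMP 3, which left 0.75 with adjusted p of 0.0506 to 0.0546. The difference from normal ECs missed without normal PBS 2 (1.21), normal PBS 3 (1.26), normal cGAMP 3 (1.10), MMTV-PyMT PBS 3 (1.09), MMTV-PyMT cGAMP 2 (1.16) or MMTV-PyMT cGAMP 3 (1.09), with adjusted p of 0.0552 to 0.0728. The implanted effect passed as lower than the MMTV-PyMT effect without MMTV-PyMT cGAMP 1 (-1.01, adjusted p = 0.0330) and with quantile normalization (-1.01, adjusted p = 0.0442).

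Of 20 tested genes of nitric oxide supply and control, 9 were higher and 4 lower in MMTV-PyMT PBS, and 8 higher and 4 lower in implanted PBS, than in normal PBS ECs. Cav1, the caveolar protein that holds the synthase inactive, averaged 497 FPKM in normal PBS against 161 in MMTV-PyMT PBS and 214 in implanted PBS libraries (-1.62, adjusted p = 1.68e-07, and -1.22, adjusted p = 3.44e-06). Slc7a2, an arginine transporter, was lower in both tumours (-2.40 and -2.99). Arg1, an arginase that competes for arginine, was higher in both (1.58, adjusted p = 0.000393, and 1.09, adjusted p = 0.00750), and Arg2, another arginase, was lower in both (-0.85 and -1.87). Ddah1, which clears inhibitors of the synthase, was higher in both (1.5 and 2.25). Between the tumours, Gchfr, the feedback regulator of cofactor synthesis, was higher in implanted ECs (1.38).

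With cGAMP, 4 of the 20 rose and 6 fell in normal ECs. In MMTV-PyMT ECs 2 rose and none fell, and in implanted ECs the counts were 3 up and 1 down, which became 3 up and 10 down with scaling by total reads and 3 up and 6 down with quantile normalization. Gch1, the first enzyme for the synthase cofactor tetrahydrobiopterin, rose in every tissue, with means from 4.43 to 11.0 FPKM in normal, from 3.37 to 13.2 in MMTV-PyMT and from 4.53 to 20 in implanted ECs (1.15, 1.70 and 1.92). Nos2, the inducible synthase of inflamed cells, rose in implanted ECs from a mean of 12.8 to 71.9 FPKM (2.39, adjusted p = 4.06e-07), and that effect was larger than in normal (by 1.96, adjusted p = 0.000506) and MMTV-PyMT ECs (by 2.13, adjusted p = 0.000530). The leukocyte markers summed highest in a library of the same group, at 213 FPKM in implanted cGAMP 2 against 44.9 and 52.7 in the others. Of 7 leukocyte markers, 1 rose in implanted ECs (median 0.76), and 2 rose without implanted cGAMP 1 (median 1.05). Of 6 fibroblast markers, 5 rose there, and 2 without implanted cGAMP 1. The part of either marker list in the Nos2 value was not tested. In normal ECs Arg1 (1.44) and Nostrin, a trafficking protein of the synthase (0.97), rose.

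The receptor side of nitric oxide was lower in tumours. All 6 measured genes of the nitric oxide receptor and its effectors fell below normal in MMTV-PyMT ECs and 5 of 6 in implanted ECs (medians -1.85 and -1.77). Gucy1a1 and Gucy1b1, the subunits of soluble guanylate cyclase, averaged 44.6 and 30.4 FPKM in normal PBS against 4.40 and 3.66 in MMTV-PyMT PBS and 3.78 and 3.31 in implanted PBS libraries. Mural cells use these genes to relax, and all 8 mural cell markers were lower in each tumour (medians -2.54 and -2.35). With cGAMP both cyclase genes fell in normal ECs (-0.74, adjusted p = 0.0333, and -0.65, adjusted p = 0.0388), where 1 of 8 mural markers fell.

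Edn1 showed the largest difference of the 6 genes between tissues. It measured 40.4, 48.6 and 51.1 FPKM in normal PBS, 13.1, 12.5 and 15.1 in implanted PBS and 3.42, 3.97 and 2.87 in MMTV-PyMT PBS libraries, and the 3 groups did not overlap. The mean was 13.7-fold lower in MMTV-PyMT (-3.43 ± 0.20, adjusted p = 3.54e-09) and 3.44-fold lower in implanted (-1.71 ± 0.20, adjusted p = 3.94e-06) than in normal ECs. It was 3.97-fold higher in implanted than in MMTV-PyMT ECs (1.72 ± 0.20, adjusted p = 7.32e-06). The tissue with the highest Edn1 was also the one with the highest Klf2 and Klf4.

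With cGAMP, Edn1 fell 3.80-fold in normal ECs, to 12.1, 9.77 and 15.0 FPKM (-1.86 ± 0.20, adjusted p = 6.09e-06). No normal cGAMP value came near the lowest PBS value, and the drop passed without any one library (-2.0 to -1.71). In MMTV-PyMT ECs values of 4.14, 5.65 and 5.11 FPKM lay above every PBS value and missed the threshold (0.43 ± 0.20, adjusted p = 0.181). In implanted ECs cGAMP 1 at 21.4 FPKM lay above and the others at 11.4 and 11.2 below every PBS value (0.05, 95% interval -0.37 to 0.48), and without implanted cGAMP 1 the estimate was -0.23 (adjusted p = 0.289). The effect differed from that in normal ECs by 2.29 ± 0.28 in MMTV-PyMT (adjusted p = 0.000551) and by 1.91 ± 0.28 in implanted ECs (adjusted p = 0.000274).

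Edn1 is made by arterial ECs among others, and arterial EC markers are given beside it. They summed to 509 to 550 FPKM in normal PBS, 149 to 194 in MMTV-PyMT PBS and 319 to 354 in implanted PBS libraries, and to 261 to 324 in normal cGAMP, 129 to 198 in MMTV-PyMT cGAMP and 241 to 394 in implanted cGAMP libraries. All 9 fell in normal ECs with cGAMP (median -0.79), and the gap junction gene Gja5 fell from a mean of 32.8 to 6.22 FPKM (-2.26, adjusted p = 6.87e-08). In MMTV-PyMT and implanted ECs, 1 and 4 of 9 fell. Under PBS, 8 of 9 were lower in MMTV-PyMT and 6 of 9 in implanted ECs than in normal ECs, with 2 higher in implanted ECs. Their part in the Edn1 values was not tested.

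Ece1 was high in every group. It measured 133, 146 and 139 FPKM in normal PBS, 132, 148 and 115 in implanted PBS and 83.7, 74.8 and 63.7 in MMTV-PyMT PBS libraries. MMTV-PyMT values lay below all others, 1.88-fold below normal (-0.91 ± 0.14, adjusted p = 5.48e-05) and 1.78-fold below implanted ECs (0.82 ± 0.14 for implanted minus MMTV-PyMT, adjusted p = 0.000243). Normal and implanted ECs did not pass as different (-0.09, 95% interval -0.39 to 0.21).

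Ece1 rose with cGAMP in implanted ECs, to 234, 159.8 and 166 FPKM (0.49 ± 0.14, adjusted p = 0.0123), above every PBS value. It missed the threshold without implanted cGAMP 1 (0.31, adjusted p = 0.0708) or implanted PBS 3 (0.39, adjusted p = 0.0627), and with implanted libraries alone in the fit (0.49, adjusted p = 0.0751). It was 0.17 with scaling by total reads (adjusted p = 0.249) and -0.020 with quantile normalization (adjusted p = 0.905). In normal ECs it stood at 148, 133 and 142 FPKM (0.02, 95% interval -0.28 to 0.32), and in MMTV-PyMT ECs at 80.0, 104 and 93.0 FPKM (0.31, 95% interval 0.01 to 0.61, adjusted p = 0.170). None of the differences of effect passed for Ece1.

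Ednrb passed as lower in neither tumour under PBS, unlike the other 5 genes, each of which was lower in at least 1. It measured 51.8, 54.9 and 56.3 FPKM in normal PBS, 65.9, 52.0 and 51.3 in MMTV-PyMT PBS and 88.3, 109.8 and 87.4 in implanted PBS libraries. Implanted values lay above all others under PBS, 1.75-fold above normal (0.79 ± 0.20, adjusted p = 0.00351) and 1.69-fold above MMTV-PyMT ECs (0.75 ± 0.20, adjusted p = 0.00611). MMTV-PyMT and normal ECs did not pass as different (0.04, 95% interval -0.37 to 0.46).

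With cGAMP, Ednrb rose in normal ECs and fell in implanted ECs. It reached 78.1, 91.2 and 97.6 FPKM in normal ECs, above every PBS value (0.70 ± 0.20, adjusted p = 0.0137), and dropped to 71.8, 39.8 and 61.7 FPKM in implanted ECs, below every PBS value (-0.74 ± 0.20, adjusted p = 0.00715). The fall was -0.92 without implanted cGAMP 1 and -0.50 without implanted cGAMP 2, the library with the most leukocyte marker RNA, and passed both times (adjusted p = 0.00273 and 0.0360). In MMTV-PyMT ECs values were 53.2, 90.2 and 67.1 FPKM (0.29, 95% interval -0.13 to 0.71, adjusted p = 0.377). The rise in normal ECs missed the threshold without normal cGAMP 3 (0.63, adjusted p = 0.0527).

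The cGAMP effect on Ednrb in implanted ECs was 1.44 ± 0.28 lower than in normal ECs (log2 difference -1.44, adjusted p = 0.00208) and lower than in MMTV-PyMT ECs (-1.03 ± 0.28, adjusted p = 0.0250). The second difference missed the threshold without MMTV-PyMT PBS 2 (-0.98), MMTV-PyMT PBS 3 (-0.97), MMTV-PyMT cGAMP 2 (-0.83) or implanted PBS 2 (-0.92), with adjusted p of 0.0605 to 0.0683, and with the 4 tumour groups alone in the fit (-1.03, adjusted p = 0.0658).

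Of 9 other listed genes of the endothelin system, 4 were in the table. Ednra, the constricting receptor of mural cells, averaged 17.6 FPKM in normal PBS against 5.89 in MMTV-PyMT PBS and 6.45 in implanted PBS libraries (-1.43, adjusted p = 4.60e-05, and -1.32, adjusted p = 0.000121), with the mural markers moving the same way. Furin, the protease that makes the first cut in the endothelin precursor, was higher in both tumours (1.03 and 0.91), and Mme, a protease that degrades endothelin, was lower (-0.45 and -1.14). With cGAMP 0 of the 4 passed by limma in normal ECs (2 at an unadjusted p under 0.05) or in MMTV-PyMT ECs (0 at an unadjusted p under 0.05), and 0 in either by voom. Furin rose in implanted ECs (0.54, adjusted p = 0.000121).

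**Figure D5:**
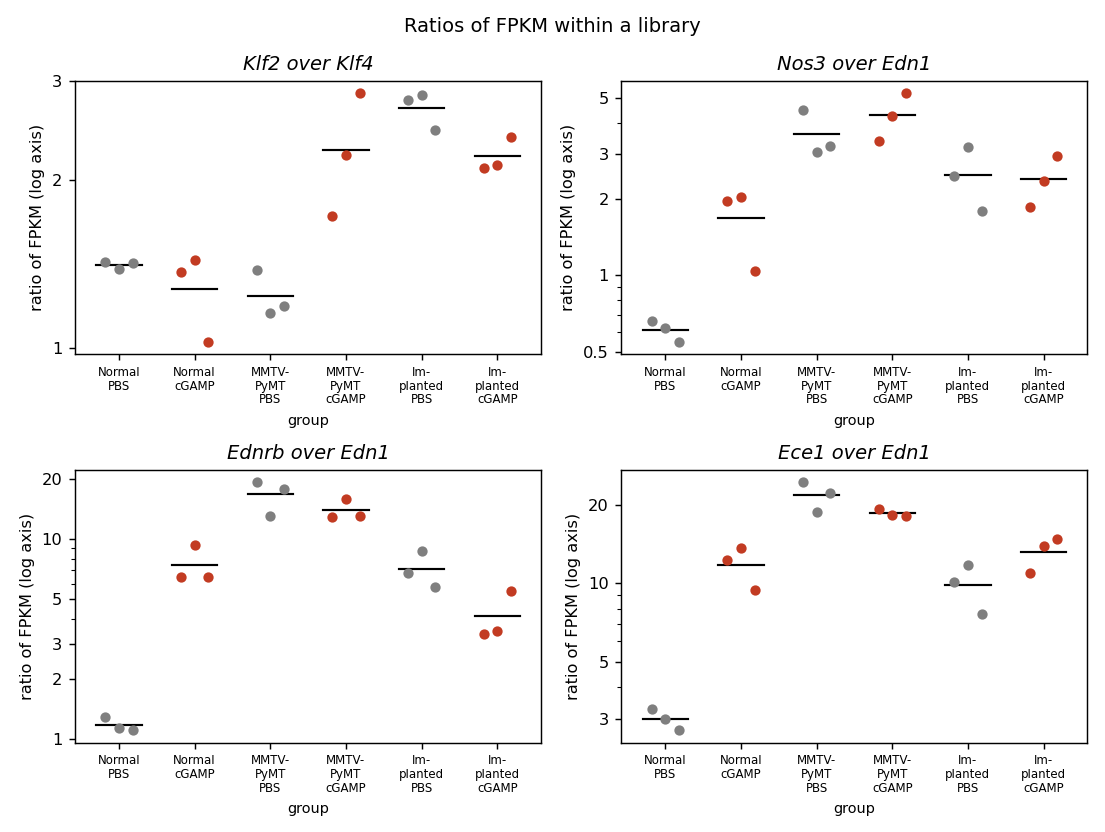
Ratios of FPKM within each library (log axis) for 4 pairs of the 6 genes, with 1 point per library, grey for PBS and red for cGAMP, and a line at the group mean (n = 3). Nos3, Ednrb and Ece1 each stand lowest against Edn1 in the normal PBS libraries, where Nos3 over Edn1 is 0.55 to 0.66.

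The ratios of Nos3, Ednrb and Ece1 to Edn1 within a library were lowest in normal PBS ECs, and the ratio of Klf2 to Klf4 was not. The ratio of Nos3 to Edn1 was 0.55 to 0.66 in normal PBS libraries, 1.79 to 3.21 in implanted PBS and 3.07 to 4.50 in MMTV-PyMT PBS libraries, and with cGAMP 1.04 to 2.04 in normal, 1.87 to 2.96 in implanted and 3.40 to 5.22 in MMTV-PyMT libraries. Ednrb over Edn1 was 1.10 to 1.28 in normal PBS and 6.46 to 9.34 in normal cGAMP libraries, against 5.79 to 8.77 and 3.35 to 5.49 in implanted, and 13.1 to 19.3 and 12.8 to 15.9 in MMTV-PyMT libraries. Ece1 over Edn1 went from 2.72 to 3.30 in normal PBS up to 9.44 to 13.7 in normal cGAMP libraries. Each of these ratios moved in normal ECs without overlap, and they share the Edn1 values. Klf2 over Klf4 overlapped in normal ECs (1.39 to 1.43 with PBS and 1.03 to 1.44 with cGAMP), was higher with cGAMP in MMTV-PyMT ECs (1.16 to 1.38 against 1.72 to 2.85) and lower with cGAMP in implanted ECs (2.45 to 2.83 against 2.10 to 2.38), without overlap in either tumour. Ratios were not tested.

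The order of the 6 groups by mean level differed from gene to gene. For Klf2 the order was normal PBS, normal cGAMP, implanted cGAMP, MMTV-PyMT cGAMP, implanted PBS and MMTV-PyMT PBS, and only the first 2 neighbours did not overlap. For Klf4, implanted PBS was last and MMTV-PyMT PBS before it, with overlap between those groups and between MMTV-PyMT PBS and MMTV-PyMT cGAMP. For Edn1 the middle groups (implanted cGAMP, implanted PBS and normal cGAMP, means 14.7, 13.6 and 12.3 FPKM) overlapped with their neighbours, while normal PBS stood above and the MMTV-PyMT groups below. For Nos3 and Ednrb neighbours overlapped in every step except normal cGAMP above MMTV-PyMT PBS for Nos3.

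The genes most like each member over the 18 libraries were found by Pearson's r of log2(FPKM + 1). The libraries fall into 6 groups, so r mostly reflects group means. Klf2 was nearest to Fryl (r = 0.947), Kctd10 (0.945) and Itpr1 (0.944). Klf4 was nearest to Tmtc1 (0.990), Ppp1r12a (0.984) and Lifr (0.983), and Lifr, the receptor of leukaemia inhibitory factor, went from a mean of 92.6 FPKM in normal PBS to 16.2 in MMTV-PyMT PBS and 14.2 in implanted PBS libraries. Edn1 was nearest to Tm6sf1 (0.978), Dlg4 (0.956) and Gja5 (0.955), the arterial marker above.

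Nos3 was nearest to Ppm1f (0.943), Git2 (0.936) and Bcr (0.932), and Ece1 to Rhoj (0.968), Crim1 (0.968) and Adgrf5 (0.962), genes of which Rhoj and Adgrf5 are known for EC expression. Ednrb had no close match, with Pde8a (0.851), Fignl2 (0.829) and Sema6b (0.80) as the nearest.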

How the data were processed

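Bulk RNA-seq was carried out on ECs sorted as live, CD45-negative and CD31-positive cells (6 groups, 3 libraries each). Before the sort, tissues were digested with enzymes and CD31-positive cells were enriched on magnetic beads. Per the labels and methods, directional libraries were checked with FastQC, aligned to mm10 (STAR 2.7) and counted by HTSeq. Whether the counting used the strand is not given in the sources used here. The authors deposited FPKM values for 16248 genes. Of the 18 columns, 12 name tumour and treatment. The normal fat pad was assigned by elimination to the 6 columns that give no tissue, so every normal value rests on that reading.

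FPKM steps gave whole reads for 16247 genes (99.99%, tolerance 0.05 reads), with 9124935 to 12129416 reads a library, and FPKM scaling followed median-of-ratios size factors. Reads carried no molecular identifiers. All 18 replicate pairs differed by more than sampling noise (chi-square per gene 4.08 to 31.3), so each library counted as 1 replicate. Groups are described as 3 mice from separate experiments, but no source ties a library to a mouse or experiment, so p-values measure the spread between these libraries.

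Genes with at least 1 FPKM in at least 3 libraries (13983) were fitted with limma 3.58.1 (R 4.3.3, trended empirical Bayes, 2-sided, Benjamini-Hochberg over all tested genes, 9 comparisons) on log2(FPKM + 1), with 1 mean per group over all 18 libraries. Changes of low genes are understated on this scale. Fits were tested on simulated data. The members, 17 gene lists and tests were chosen with earlier results of these data known. A gene of the list that KLF2 or KLF4 repress is not reported here and was left out of that list's counts and medians. Named genes are the members, up to 3 genes of a list with the largest change among those that passed in a comparison (with their values in the other comparisons), and the 3 nearest genes of each member. Alternatives were a pseudocount of 0.1, no filter, a mean of at least 5 FPKM, quantile normalization, scaling by total reads, only the groups compared, the replicate number as a block, limma-voom on recovered reads, a fold limit (log2 change of at least 1), and leaving out each library. Gene lists without implanted cGAMP 1 were added after the data were seen. Gene positions are from GENCODE M21 and promoters from RefSeq.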

Additional observations from a re-analysis of the deposited data

Results flagged for a closer look

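The effect of cGAMP differed between tissues for 5 of the 6 genes in at least 1 contrast, by limma's test of the difference itself. Of all genes, 8.37% passed for MMTV-PyMT minus normal, 18.6% for implanted minus normal and 11.1% for implanted minus MMTV-PyMT ECs. A share over the contrasts together was not taken. Against normal ECs, the effect in MMTV-PyMT ECs was higher by 1.65 on the log2 scale for Klf2, 1.26 for Nos3 and 2.29 for Edn1. Against normal ECs, the effect in implanted ECs was higher by 1.35 for Klf2, 1.45 for Klf4 and 1.91 for Edn1, and the log2 difference for Ednrb was -1.44. Between the tumours, the Ednrb effect differed by -1.03 (implanted minus MMTV-PyMT). Over 26 alternatives, the Nos3 difference lost its call in 6 and the Ednrb difference between the tumours in 5. The Klf2 difference of implanted from normal ECs lost it in 1. For Klf2 the change passed in opposite directions in normal ECs and in both tumours, for Klf4 and Ednrb in opposite directions in normal and implanted ECs. Over the 26 alternatives, the Klf2 fall of normal ECs lost its call in 4. The Klf2 rise lost its call in 5 for MMTV-PyMT ECs and in 10 for implanted ECs. The Klf4 fall of normal ECs lost its call in 4 and their Ednrb rise in 1. The Klf4 and Ednrb changes of implanted ECs kept their calls in all 26. For Edn1 the change passed in normal ECs and in neither tumour. For Nos3 it passed in MMTV-PyMT ECs, a call lost in 12 of 26 alternatives, while the change in normal ECs passed with normal libraries alone in the fit (-0.51, adjusted p = 0.0292) and the effect in implanted minus MMTV-PyMT ECs did not pass (-0.74, adjusted p = 0.163). All differences from normal ECs share the normal libraries, and all use PBS libraries that the contrasts between tissues use as well.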

How the results depend on the processing

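Of 54 log2 changes of the 6 genes, 32 passed. Over 26 alternatives each, 1324 values kept their direction and side of the threshold, 57 lost the pass, 5 gained one and 18 changed sign, 1 of them (Ece1 in implanted ECs) among those that had passed. The number of members that passed is given next. In normal ECs it went from 4 with cGAMP to 1 when a log2 change of at least 1 was also asked, and to 1 to 4 when a library was left out. In MMTV-PyMT ECs it went from 2 to 0 with only the groups compared (4 at unadjusted p under 0.05, by limma, and 2 passed by voom), 1 with the replicate block, 0 with the fold limit, and 0 to 2 when a library was left out. In implanted ECs it went from 4 to 2 with quantile normalization or scaling by total reads, 0 with the fold limit, and 2 to 4 when a library was left out. For the effect in implanted minus MMTV-PyMT ECs it went from 1 to 2 with quantile normalization, 0 with only the groups compared (2 at unadjusted p under 0.05, by limma, and 1 passed by voom), and 0 to 2 when a library was left out. For implanted minus MMTV-PyMT ECs under PBS it went from 5 to 2 with the fold limit. The causes were not tested. Scaling by total reads moved the median of all genes to -0.25 with cGAMP in implanted ECs (1693 genes higher and 5922 lower, against 2841 and 2623) and to -0.14 in MMTV-PyMT ECs (916 higher and 2364 lower, against 1037 and 639). For the effect it gave 901 higher and 2560 lower in implanted minus normal (against 1751 and 851), 643 and 1097 in implanted minus MMTV-PyMT (against 1026 and 520) and 561 and 874 in MMTV-PyMT minus normal ECs (against 766 and 405), and for implanted ECs under PBS 2553 and 4744 against normal (from 3499 and 3305) and 2218 and 4880 against MMTV-PyMT (from 2915 and 3446). Quantile normalization gave 2359 higher and 3677 lower with cGAMP in implanted and 994 and 1018 in MMTV-PyMT ECs, and for the effect 1342 and 1395 (implanted minus normal), 765 and 822 (implanted minus MMTV-PyMT) and 868 and 699 (MMTV-PyMT minus normal).

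Signs changed as follows. With cGAMP in implanted ECs, quantile normalization gave -0.29 for Nos3, -0.091 for Edn1 and -0.020 for Ece1, and scaling by total reads -0.30 for Nos3 and -0.24 for Edn1. Klf4 in MMTV-PyMT ECs was -0.0042 with scaling by total reads. The Ece1 effect was -0.084 (implanted minus normal) and -0.20 (implanted minus MMTV-PyMT) with quantile normalization, and -0.0084 (implanted minus MMTV-PyMT) with scaling by total reads. Ednrb in MMTV-PyMT minus normal ECs under PBS was -0.073 with quantile normalization. Leaving out a library gave Ece1 in normal ECs -0.018 to 0.057 with cGAMP, Ednrb in MMTV-PyMT minus normal ECs -0.071 to 0.11, Nos3 in implanted ECs -0.13 to 0.15, Edn1 in implanted ECs -0.23 to 0.20 and Ece1 in implanted minus normal ECs under PBS -0.18 to 0.0054.

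Whether the replicate numbers pair the samples is not known. Between PBS and cGAMP libraries of a tissue, the correlation of same-numbered deviations ran from -0.291 to 0.263. Differently numbered libraries were not compared, so this range cannot decide it. With the replicate block, Nos3 in MMTV-PyMT ECs (0.75, adjusted p = 0.0587) and Klf2 in implanted ECs (0.65, adjusted p = 0.0561) missed the threshold, and the block changed no other member's call. Depth limited Edn1 most, at 78 to 1232 reads a library.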
